A study of Mus musculus with 6 samples.

Results

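The 10 Krüppel-like factor genes described here, Klf2, Klf3, Klf4, Klf6, Klf7, Klf9, Klf10, Klf11, Klf13 and Klf15, were taken by symbol from a table of 24421 genes. All 10 were found and passed the filter on low values, together with 13010 genes in all. The 6 libraries were made from whole hearts of C57BL6/J mice aged 4 weeks, and no label names a treatment or a mutation. RNA was immunoprecipitated (RIP) through the Cnot3 protein in 2 libraries (Cnot3 RIP) and through control IgG in another 2 (control IgG RIP), and 2 libraries hold heart RNA that was not precipitated (Input). The labels do not say whether the replicates came from separate animals or from a pool, so the p-values rest on variation among these 6 libraries alone, part or all of which could be technical. Values are scaled CPM, the deposited share of reads assigned to each gene after correction for library composition with TMM factors. Totals were 15713318 to 33479580 reads, of which 51.1% to 79.2% came from the ribosomal RNA precursor Rn45s. RIP values are shares of the RNA recovered, not amounts.

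Krüppel-like factors are transcription factors that bind GC-rich and CACC-type promoter sequences through zinc fingers at their carboxyl end. Many of their mRNAs are made in short bursts after mechanical, hormonal or growth factor signals and do not last long, so decay helps to set their level. In the heart they are known from the endothelium, where Klf2 and Klf4 respond to blood flow, and from cardiac muscle, where Klf15 restrains growth and steers fuel use. Cnot3 is part of CCR4-NOT, the complex that removes poly(A) tails and so starts the decay of most mRNAs. Adaptor proteins that recognise AU-rich elements or Pumilio elements, and microRNA-loaded Argonaute proteins through TNRC6, bring this complex to chosen transcripts.

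The 3′ untranslated regions (UTRs) of the 10 mRNAs were searched, on the sense strand, for 3 kinds of element that can connect an mRNA with CCR4-NOT. The protein-coding transcript with the longest 3′ UTR was used for each gene (GENCODE M21, GRCm38, the same assembly as mm10). The AU-rich heptamer TATTTAT, which contains the shorter ATTTA, was found in Klf2, Klf6, Klf7, Klf10 and Klf11. It is shown because 4 of the 5 genes that rose over control IgG RIP, and 1 of the other 5, contain it. The heptamer was thus picked with the calls known, and 31.3% of all tested genes with a 3′ UTR contain it. The other motifs divided the genes less. ATTTA was in 5 of the 5 that rose and 5 of the other 5, the Pumilio element in 4 and 3, and the miR-92a site given below in 2 and 1. Each heptamer site is given with 8 bases on either side, 5′ to 3′, with the heptamer in capitals.
Klf2, chr8:72320991-72321013 (plus strand): cagactgcTATTTATtggacctt
Klf6, chr13:5868493-5868515 (plus strand): acgtctctTATTTATgccttgag
Klf6, chr13:5868946-5868968 (plus strand): accggctgTATTTATtatgtaac
Klf7, chr1:64029787-64029809 (minus strand): ttctctggTATTTATaatatatc
Klf10, chr15:38294923-38294945 (minus strand): tgtcttttTATTTATaggagttt
Klf11, chr12:24660914-24660936 (plus strand): tataaaaaTATTTATattgtgct

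The heptamer is common in long 3′ UTRs, so each count was read against other tested genes whose 3′ UTR was within 20% of the same length. The Klf2 3′ UTR had 737 bases, and 20.4% of 1323 genes of like length held at least 1 heptamer. Klf6 had 2 in 3111 bases, and 21.4% of 1536 genes of like length held as many. For Klf7, with 6266 bases, 69.4% of such genes held the heptamer, for Klf11 41.7% and for Klf10 32.9%. The pentamer ATTTA was present in all 10, with 18 copies in Klf7 and 3 in Klf13, against medians of 11 and 9 in genes of like length. Copies were also above that median in Klf3, Klf6, Klf9, Klf10 and Klf15, and equal to it in Klf2, Klf4 and Klf11. The copies thus did not follow the calls over control IgG RIP. These matches are descriptions of the sequence and do not show that a protein binds there.

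The site for miR-92a, a microRNA known from human endothelial cells to repress KLF2 and KLF4, was found in Klf2, Klf4 and Klf6. The sites are shown because the flow-responsive pair and Klf6, which had the largest difference over control IgG RIP, all hold one. They were thus picked with the values known. Klf3, Klf7 and Klf11, which also rose over control IgG RIP, hold no such site, and Klf4 did not pass. The site was held by 4.08%, 4.71% and 14.3% of tested genes whose 3′ UTR is as long as that of Klf2, Klf4 and Klf6. The mature sequence is that of RefSeq on GRCm38.p6, where 1 of its genes lies on chromosome 14, with the seed (bases 2 to 8) in capitals. In the sites, capitals mark the 7 bases complementary to the seed.
mmu-miR-92a-3p: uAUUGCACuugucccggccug
Klf2, chr8:72321125-72321147 (plus strand): tcaaaatgGTGCAATaattgact
Klf4, chr4:55527360-55527382 (minus strand): tttcagatGTGCAATaatttgta
Klf6, chr13:5868264-5868286 (plus strand): atgatcttGTGCAATgtagggtt

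The Pumilio element TGTANATA, where N is any base, occurred in Klf2, Klf3, Klf6, Klf9, Klf11, Klf13 and Klf15. Among genes of like 3′ UTR length it was held by 16.2% for Klf2 and 17.9% for Klf15, and by 37.7% to 59.9% for the other 5. Klf9 carried 3 copies in 3222 bases, which 5.31% of 1506 genes of like length equalled or passed. Klf15 is shown because it carried 3 copies in 950 bases, which 0.880% of 1591 genes of like length equalled or passed. The windows of the first and second copy overlap, while the elements in capitals do not.
Klf15, chr6:90475036-90475059 (plus strand): tgaatgtaTGTAAATAaactgtac
Klf15, chr6:90475047-90475070 (plus strand): aaataaacTGTACATAggtacgca
Klf15, chr6:90475138-90475161 (plus strand): aaagttggTGTACATAtgttacaa

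Setting Cnot3 RIP against control IgG RIP asks which mRNAs came down with Cnot3 more than with an unspecific antibody. Klf2, Klf3, Klf6, Klf7 and Klf11 rose, by 3.80-fold to 6.34-fold, and 0 of the 10 fell. The 10 were chosen with earlier results of these data known, so their counts beside all genes are descriptions and not an unbiased result for the family. Klf8, Klf12 and Klf16 also passed the filter on low values but are outside the 10. Each lay above 0 over control IgG RIP, and none of them passed limma. All 10 had a log2 fold change above 0, where 49.7% of all tested genes did. They ran from 0.56 for Klf13 to 2.66 for Klf6, with a median of 1.69, where the median of all tested genes was −0.0029. At a limma adjusted p under 0.05, 1.81% of all tested genes were called in this comparison, 1.54% higher and 0.277% lower. In 8 of the 10 both Cnot3 RIP libraries lay above both control IgG RIP libraries, against 24% of all tested genes, and in 0 of the 10 both lay below, against 21.8%.

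**Figure D1:**
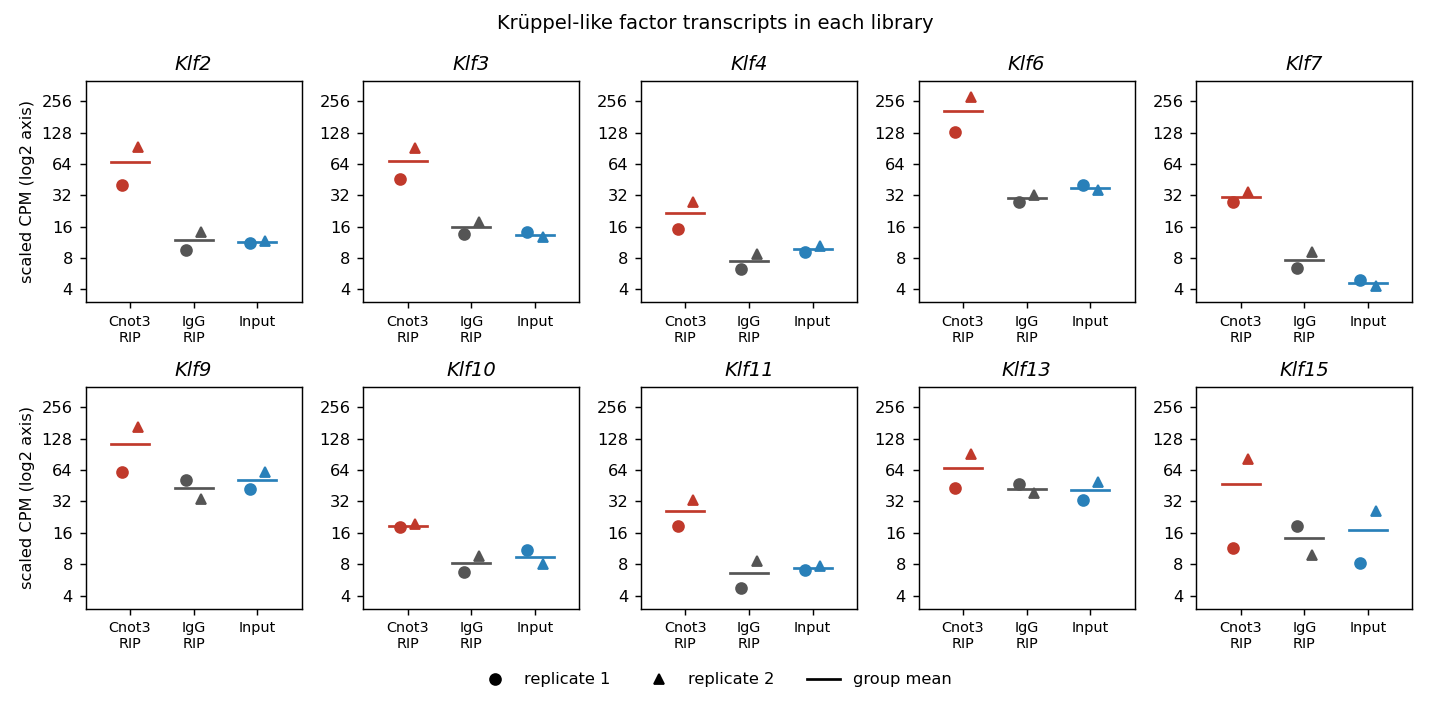
Level of each Krüppel-like factor transcript (scaled CPM, log2 axis) in Cnot3 RIP, control IgG RIP and Input; circles are replicate 1, triangles replicate 2 and bars the group mean. Klf6 reached 280 scaled CPM in Cnot3 RIP replicate 2, and the groups overlapped against control IgG RIP for Klf13 and Klf15 alone.

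Klf6, a zinc finger factor induced early after tissue injury, had the largest difference. It stood at 130 and 280 scaled CPM in Cnot3 RIP, against 27.7 and 32.2 with control IgG and 40.0 and 35.7 in Input. Both Cnot3 RIP libraries were far above the other 4, and the pair differed from each other by 2.15-fold. The log2 fold change over control IgG RIP was 2.66 (SE 0.33, limma adjusted p = 0.0133). The gene lies on chromosome 13, 5861482 to 5870394, on the plus strand.

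Klf2, which holds endothelial cells in a quiet, antithrombotic state under flow, followed with 39.9 and 92.6 scaled CPM in Cnot3 RIP, against 9.57 and 14.3 with control IgG and 11.1 and 11.6 in Input. No library of either other group reached the lower Cnot3 RIP value. The difference over control IgG RIP was 5.11-fold (2.35 on the log2 scale, SE 0.37, limma adjusted p = 0.0260), and the gene lies on chromosome 8, 72319033 to 72321656, on the plus strand. Klf4, its relative in endothelium and smooth muscle, stood at 15.2 and 27.8 scaled CPM in Cnot3 RIP, against 6.23 and 8.74 with control IgG and 9.14 and 10.4 in Input. The groups did not overlap, but with a log2 fold change of 1.45 (95% interval 0.74 to 2.16) Klf4 did not pass (limma adjusted p = 0.0560).

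Klf2 and Klf4 are known from the endothelium of the heart, though not from it alone, so markers of that cell type were summed beside them. The summed level of 7 markers, among them Pecam1 and Cdh5, was 446 and 253 scaled CPM in Cnot3 RIP, against 304 and 438 with control IgG and 327 and 282 in Input. The 7 had a median log2 fold change of −0.27 over control IgG RIP, and 0 passed limma, where 1.81% of all tested genes were called. The part of these markers in the differences was not tested.

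Klf3, a repressor that works through the corepressor CtBP, stood at 45.8 and 91.7 scaled CPM in Cnot3 RIP, against 13.6 and 17.9 with control IgG and 14.1 and 12.8 in Input. The lower Cnot3 RIP value was above every other library. Its difference over control IgG RIP was 4.10-fold (2.04 on the log2 scale, SE 0.32, limma adjusted p = 0.0260). Klf3 lies on chromosome 5, 64803388 to 64832901, on the plus strand, and an antisense transcript overlaps 404 of its exonic bases.

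Klf7, best known from neurons and fat cell precursors, was the most even of the 5 between the Cnot3 RIP libraries, at 27.8 and 34.6 scaled CPM in Cnot3 RIP, against 6.40 and 9.06 with control IgG and 4.89 and 4.30 in Input. The 3 groups did not overlap and stood in the order Cnot3 RIP, control IgG RIP, Input. Over control IgG RIP the log2 fold change was 1.99 (SE 0.25, limma adjusted p = 0.0148). Its lowest count was 53 reads, in Input replicate 1, for which the exact 95% binomial interval is 3.67 to 6.40 scaled CPM and covers counting error only. Klf7 lies on chromosome 1, 64029447 to 64122282, on the minus strand, and an annotated antisense transcript overlaps 3196 of its exonic bases. The strand setting of the counting is not given in the sources used here, so reads of Klf7, or of Klf3, and of its antisense transcript cannot be told apart.

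Klf10 and Klf11 are the TGF-beta-inducible members, repressors that recruit Sin3a. Klf11 stood at 18.8 and 33.1 scaled CPM in Cnot3 RIP, against 4.73 and 8.56 with control IgG and 7.02 and 7.73 in Input, again with no overlap. It was 3.80-fold higher than in control IgG RIP (1.93 on the log2 scale, SE 0.34, limma adjusted p = 0.0350). Klf10 had the closest Cnot3 RIP replicates, at 18.1 and 19.5 scaled CPM in Cnot3 RIP, against 6.75 and 9.70 with control IgG and 10.9 and 8.02 in Input. Its log2 fold change of 1.19 (95% interval 0.60 to 1.78) did not pass (limma adjusted p = 0.0597), although the groups did not overlap.

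The remaining members are Klf9, Klf13 and Klf15, none of which passed. Klf9, which is induced by glucocorticoid and thyroid hormone, stood at 61.5 and 166 scaled CPM in Cnot3 RIP, against 51.7 and 33.8 with control IgG and 41.8 and 61.3 in Input. The Cnot3 RIP values lay above those of both other groups and for replicate 1 the margin over Input was 61.5 against 61.3. Klf13, which like Klf9 binds Sin3a, stood at 43.3 and 90.6 scaled CPM in Cnot3 RIP, against 46.9 and 38.3 with control IgG and 33.1 and 49.3 in Input. Klf15, a glucocorticoid-induced regulator of amino acid and lipid use in cardiac muscle, stood at 11.5 and 82.6 scaled CPM in Cnot3 RIP, against 18.6 and 9.74 with control IgG and 8.31 and 26.0 in Input. For Klf13 and Klf15 the groups overlapped. The log2 fold changes over control IgG RIP were 1.27 for Klf9 (95% interval 0.29 to 2.25), 0.56 for Klf13 (−0.23 to 1.35) and 1.19 for Klf15 (−0.64 to 3.01), with limma adjusted p of 0.171, 0.485 and 0.533. These intervals leave room for differences as large as that of Klf2 in Klf15, and do not show that these mRNAs were recovered equally.

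**Figure D2:**
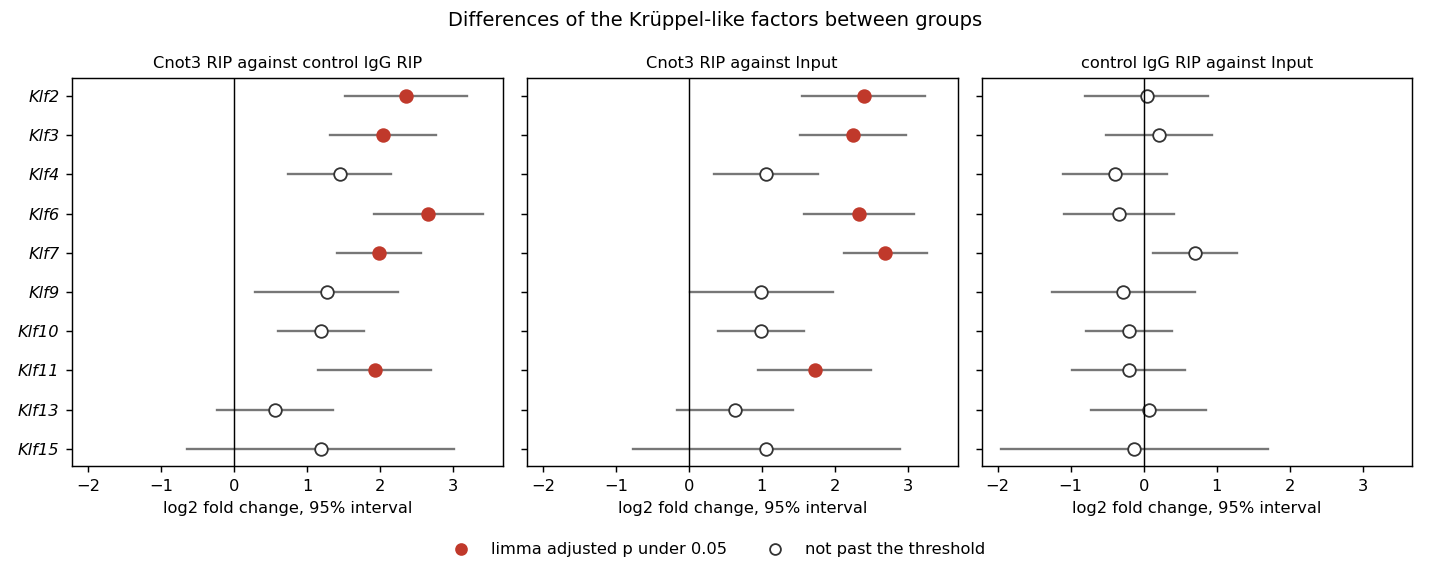
Log2 fold change of each Krüppel-like factor with its 95% interval in the 3 comparisons (limma); filled points passed an adjusted p under 0.05 over all genes. Klf2, Klf3, Klf6, Klf7 and Klf11 passed in both comparisons of Cnot3 RIP, which share the Cnot3 RIP libraries, and 0 passed between control IgG RIP and Input.

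The calls depended on single libraries. Without control IgG RIP replicate 1, 0 of the 10 passed limma, and 0 genes of the whole table were called higher (745 at an unadjusted p under 0.05). The members then had log2 fold changes of 2.53 for Klf6, 2.04 for Klf2, 1.81 for Klf3, 1.72 for Klf7 and 1.48 for Klf11. Without Cnot3 RIP replicate 2 only Klf6 passed (2.12, limma adjusted p = 0.0174), the other 4 had limma adjusted p from 0.0558 to 0.167, and 0.222% of all genes were higher. Without Cnot3 RIP replicate 1 all but Klf13 passed, Klf13 having 1.10 (limma adjusted p = 0.0503), but 7.78% of all genes were then higher. Klf2 moved most among the 5, to 1.75 without Cnot3 RIP replicate 2 and 2.97 without replicate 1. Without Cnot3 RIP replicate 2 Klf9, Klf13 and Klf15 had 0.56, 0.04 and −0.21, and without replicate 1 they had 2.00, 1.10 and 2.603.

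**Figure D3:**
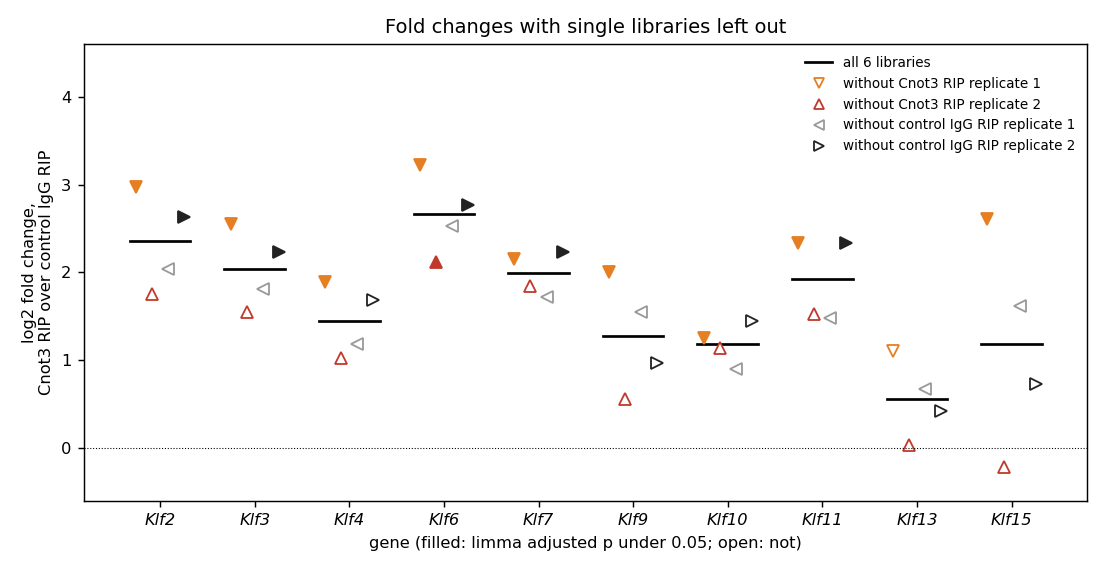
Log2 fold change of Cnot3 RIP over control IgG RIP for each Krüppel-like factor with all 6 libraries (bars) and with 1 Cnot3 RIP or control IgG RIP library left out (triangles, filled where limma adjusted p was under 0.05). Klf15 ran from −0.21 to 2.603, while Klf10 ran from 0.91 to 1.44 and Klf7 from 1.72 to 2.23.

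Against Input, which asks how the precipitate differs from the RNA of the heart, Klf7 had the largest difference, at 6.46-fold (2.69 on the log2 scale, SE 0.25, limma adjusted p = 0.00298). Klf2, Klf6, Klf3 and Klf11 also rose, with log2 fold changes of 2.39, 2.33, 2.25 and 1.73 and limma adjusted p of 0.0118, 0.00972, 0.00972 and 0.0230. This made 5 of 10 higher and 0 lower, where 8.32% of all tested genes were called, 5.86% higher and 2.47% lower. Both Cnot3 RIP libraries lay above both Input libraries in 8 of the 10 and below in 0, against 30.6% and 26.9% of all tested genes. Klf10 (0.99, limma adjusted p = 0.0506), Klf4 (1.06, 0.0682), Klf9 (0.99, 0.178), Klf13 (0.63, 0.283) and Klf15 (1.06, 0.440) did not pass. The median of the 10 was 1.39, against 0.06 over all tested genes. These values share the Cnot3 RIP libraries with the comparison above and are not independent of it. Without Input replicate 2 only Klf7 passed (2.56, limma adjusted p = 0.0424), where 0.0737% of all genes were higher. Without Input replicate 1 Klf2 and Klf11 did not (2.31 and 1.61, limma adjusted p = 0.0618 and 0.111), with 0.720% of all genes higher. Without Cnot3 RIP replicate 2 Klf11 did not pass (1.32, 0.106), with 1.17% of all genes higher. Without Cnot3 RIP replicate 1 all but Klf10 did (1.04, 0.0560), with 10.9% of all genes higher. Among the cell type markers, Myl2 of cardiac muscle (−1.28, limma adjusted p = 0.0322) and Lyz2 of leukocytes (−0.96, 0.0464) fell against Input, and the 7 cardiac muscle markers had a median of −0.48. Their part in the differences was not tested.

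Control IgG RIP against Input shows what the procedure recovers without the Cnot3 antibody. None of the 10 passed limma. Unadjusted, 1 had p under 0.05, Klf7, which ranked 2118 by limma p among all 13010 tested genes. The quasi-likelihood test of edgeR called 0 of the 10, where 1.69% of all tested genes were called higher. DESeq2 also called 0 of the 10, where 3.37% were called higher. Of all tested genes 4.07% were called by limma, 2.58% higher and 1.49% lower. The log2 fold changes ran from −0.39 for Klf4 to 0.70 for Klf7 (95% interval 0.13 to 1.28), with a median of −0.16 against 0.01 over all genes. With the deposited CPM, not scaled by TMM, this median was 0.58, and all genes had a median of 0.70. The groups did not overlap for Klf7, which was higher in both control IgG RIP libraries, nor for Klf4 and Klf6, which were lower in both. Of all tested genes 29.7% stood apart in the first way and 29.3% in the second.

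Levels between genes were compared per kilobase of the same transcripts. In Input the order by mean scaled CPM per kilobase was Klf9 (11.5), Klf6 (8.96), Klf15 (6.91), Klf13 (6.44), Klf2 (6.15), Klf4 (3.23), Klf10 (3.11), Klf3 (2.58), Klf11 (1.804) and Klf7 (0.600). Replicate ranges overlapped between neighbours from Klf9 to Klf2 and from Klf4 to Klf3. They did not overlap between Klf2 and Klf4, Klf3 and Klf11, or Klf11 and Klf7. In Cnot3 RIP the order was led by Klf6 (48.5) and Klf2 (35.9) and again ended with Klf7 (4.07), and all neighbours but Klf10 and Klf7 overlapped. Per kilobase of all annotated exons of a gene, the order changed: Klf3 stood at 1.20 in Input, below Klf11 at 1.70, and at 6.11 in Cnot3 RIP, below Klf4 at 7.06. In bulk tissue, fewer cells of a type and less RNA per cell cannot be told apart.

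Differences between the libraries of a group were unequal among the members. In Cnot3 RIP all 10 were higher in replicate 2, with a median log2 difference of 1.03, where all genes had a median of 0.07 and an SD of 0.59. Klf15 differed by 2.81 and Klf9 by 1.43, while Klf10 differed by 0.11 and Klf7 by 0.31. In control IgG RIP, Klf9, Klf13 and Klf15 were lower in replicate 2, by log2 differences of −0.61, −0.29 and −0.92, while the other 7 were higher. In Input, Klf9, Klf13 and Klf15 were higher in replicate 2, by 0.55, 0.57 and 1.62, and the other 7 lay between −0.43 and 0.19.

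**Figure D4:**
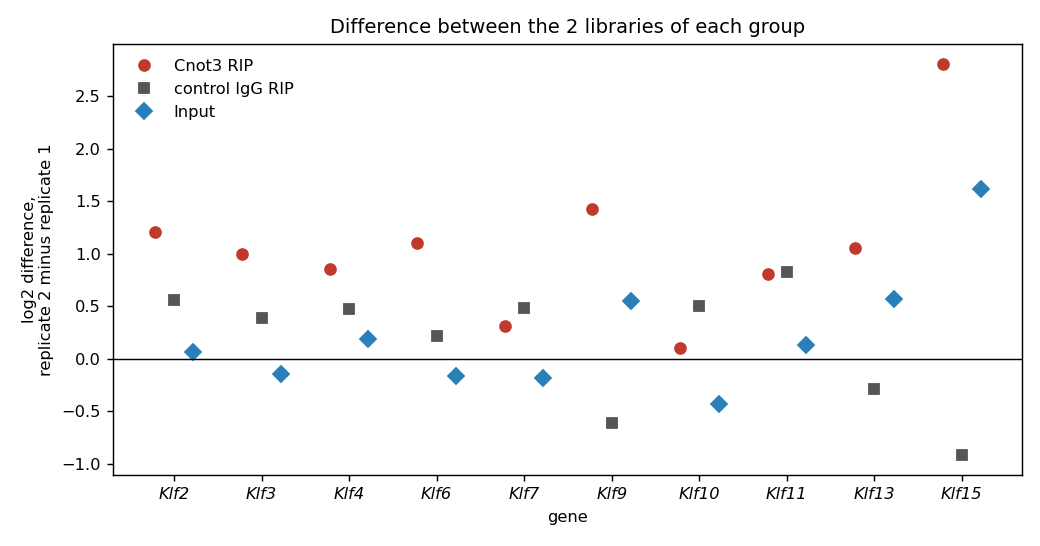
Log2 difference between replicate 2 and replicate 1 of scaled CPM plus 0.25 for each Krüppel-like factor in Cnot3 RIP, control IgG RIP and Input. Klf9, Klf13 and Klf15 lay above 0 in Cnot3 RIP and Input and below 0 in control IgG RIP.

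Some genes of the glucocorticoid response also differed between the libraries of a group. Fkbp5, a receptor co-chaperone induced by glucocorticoid, stood at 2.56 and 25.8 scaled CPM in Cnot3 RIP, against 32.6 and 3.72 with control IgG and 3.05 and 22.8 in Input. Zbtb16, a hormone-induced transcription factor, stood at 37.2 and 355 in Cnot3 RIP, against 215 and 38.5 with control IgG and 25.1 and 145 in Input. Per1, a clock gene that glucocorticoid also induces, stood at 35.6 and 198 in Cnot3 RIP, against 61.5 and 30.9 with control IgG and 19.9 and 46.1 in Input. All 3 were high in Cnot3 RIP replicate 2, control IgG RIP replicate 1 and Input replicate 2, and were chosen for naming after their values were seen. In the list of 15 tested glucocorticoid receptor and KLF15 metabolic genes, 14 were higher in replicate 2 of Cnot3 RIP, 3 in replicate 2 of control IgG RIP and 14 in replicate 2 of Input, where 55.3%, 50.6% and 51.1% of all genes were. Sgk1 was an exception, at 43.4 and 125 scaled CPM in Cnot3 RIP, against 20.7 and 26.1 with control IgG and 21.1 and 21.3 in Input. The glucocorticoid receptor gene Nr3c1 and Kcnip2, a potassium channel subunit, were the other two that were higher in replicate 2 of control IgG RIP. Among the 3 libraries high in Fkbp5, Klf15 stood at 82.6 scaled CPM for Cnot3, 18.6 for control IgG and 26.0 for Input, and among the other 3 at 11.5, 9.74 and 8.31. These Klf15 values restate its replicate differences given above, and Fkbp5 was picked with its values known, so the match is a description. The part of this pattern in the fold changes of Klf9, Klf13 and Klf15 was not tested. Cardiac muscle markers, 7 in all, summed to 23538 and 24823 scaled CPM in Cnot3 RIP, against 34361 and 18783 with control IgG and 18193 and 21625 in Input. Fibroblast markers summed to 921 and 445 in Cnot3 RIP, 520 and 840 with control IgG and 717 and 573 in Input. Smooth muscle and pericyte markers summed to 351 and 180, 197 and 361, and 294 and 219 in the same order. Within each group these sums, and the endothelial sums given above, were lower in the library high in Fkbp5. Leukocyte sums in Input went the other way, at 60.6 and 72.1. The part of these markers in the pattern was not tested.

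**Figure D5:**
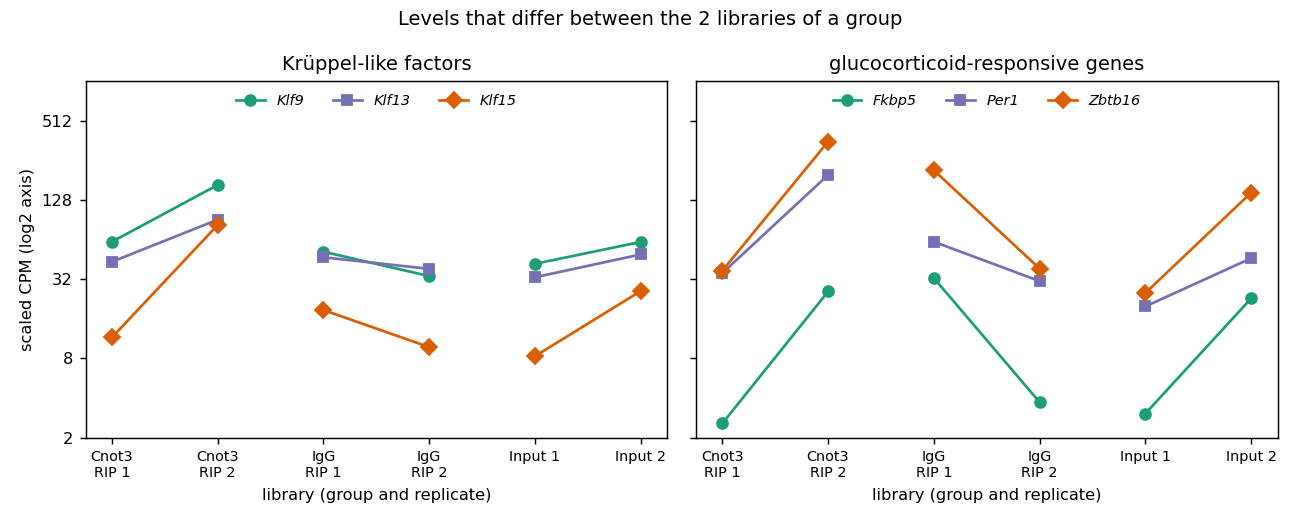
Scaled CPM (log2 axis) of Klf9, Klf13 and Klf15 (left) and of Fkbp5, Per1 and Zbtb16 (right) in each library, with lines joining the replicates of a group. All 6 genes were higher in replicate 2 of Cnot3 RIP, replicate 1 of control IgG RIP and replicate 2 of Input, where Fkbp5 stood at 25.8, 32.6 and 22.8 scaled CPM. The genes on the right were chosen after their values were seen.

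The list of other Krüppel-like and SP family genes had 16 members, of which 7 passed the filter on low values. Over control IgG RIP all 7 had a log2 fold change above 0, against 49.7% of all tested genes. The median was 0.87, against −0.0029 over all tested genes. Past the threshold, 1 of the 7 rose and 0 fell, where 1.54% of all tested genes rose and 0.277% fell. The one that rose was Sp1, a broadly expressed activator of GC-box promoters, at 76.9 and 129 scaled CPM in Cnot3 RIP, against 31.4 and 37.4 in control IgG RIP (1.53 on the log2 scale, SE 0.27, limma adjusted p = 0.0348). Against Input, Sp1 (1.36, limma adjusted p = 0.0237) and Sp3, its closest relative (0.89, 0.0497), rose, where 5.86% of all tested genes did. Klf12, the most abundant Krüppel-like factor outside the 10, stood at 15.2 and 20.7 scaled CPM in Cnot3 RIP, against 16.4 and 15.4 with control IgG and 12.7 and 12.5 in Input. Its log2 fold change over control IgG RIP was 0.15 (limma adjusted p = 0.832). Klf5 had 1 to 11 reads per library, and Klf1, Klf14 and Klf17 had 0 to 2.

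Cofactors and upstream pathways of the family contained single genes that rose. Among 16 cofactors and ubiquitin ligases, Fbxw7, the ligase subunit that marks several Krüppel-like proteins for degradation, rose over control IgG RIP, at 69.4 and 113 scaled CPM in Cnot3 RIP against 26.5 and 32.4 (1.59 on the log2 scale, SE 0.30, limma adjusted p = 0.0379). The median of that list was 0.08, against −0.0029 over all tested genes, of which 1.54% rose. Among 16 genes of the ERK5 and MEF2 pathway and of vascular KLF2 and KLF4 targets, Map3k2, a kinase above ERK5, rose (1.41, SE 0.28, limma adjusted p = 0.0459), with a list median of 0.14. Of these 16, 12 had a log2 fold change above 0, against 49.7% of all tested genes. So did 8 of the 16 cofactors and ubiquitin ligases, 13 of 16 in the TGF-beta and SMAD list below and 12 of 15 in the glucocorticoid and KLF15 list. Fbxw7 and Map3k2 also rose against Input, by 1.71 and 1.73 on the log2 scale (limma adjusted p = 0.0160 and 0.0137), as the only members of their lists. Of all tested genes 5.86% rose against Input.

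In the TGF-beta and SMAD list, 2 of 16 rose over control IgG RIP and 0 fell, where 1.54% of all tested genes rose and 0.277% fell. The list median was 0.44, against −0.0029 over all tested genes. The 2 that rose were Smad7, the feedback inhibitor of TGF-beta receptors (1.81, SE 0.38, limma adjusted p = 0.0497), and Skil, a repressor of SMAD transcription (1.70, SE 0.32, 0.0379). Against Input, Skil, Smad7, Smad3 and Smad6 rose, with log2 fold changes of 1.89, 1.90, 1.25 and 1.20 (limma adjusted p = 0.0148, 0.0229, 0.0370 and 0.0364). The list median there was 0.86, against 0.06 over all tested genes, of which 5.86% rose. In the glucocorticoid and KLF15 list the median over control IgG RIP was 0.23, and 1 of 15 rose, the mTOR inhibitor Ddit4 (4.05, SE 0.74, limma adjusted p = 0.0350). Against Input, Ddit4 (3.72, 0.0230) and the kinase Sgk1 (1.78, 0.0357) rose. The differences over control IgG RIP did not pass for any of Sp1, Fbxw7, Map3k2, Skil, Smad7 and Ddit4 when either control IgG RIP replicate 1 or Cnot3 RIP replicate 2 was left out, with limma adjusted p up to 0.461. Without control IgG RIP replicate 2 all but Skil lost the call. Sp1, Map3k2 and Smad7 also lost it without either Input library, and Skil without Input replicate 2. Against Input, all 10 calls in these lists were lost without Input replicate 2, all but that of Map3k2 without Input replicate 1, and all but that of Ddit4 without Cnot3 RIP replicate 2. Sgk1 and Sp3 also lost theirs without either control IgG RIP library, and Smad6 without control IgG RIP replicate 1.

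Profiles over the 6 libraries were compared with the mean centred profile of the 10 members. Klf2 was nearest to the mean of the other 9 (Pearson's r = 0.988) and Klf15 farthest (0.660). Among 4711 other named genes with a mean of at least 10 scaled CPM, the 6 most alike were Ppp1r15b, Rab43, Cldn12, Zbtb43, Enc1 and Ctgf, with r from 0.995 to 0.998 over 6 libraries. They were selected for that value and share libraries and scaling with the members, so r is a description. Nor does r measure the size of a difference. Rab43 stood at only 11.2 and 13.2 scaled CPM in Cnot3 RIP, against 8.88 and 9.47 with control IgG and 9.14 and 9.51 in Input. Ppp1r15b, which directs a phosphatase to the translation factor eIF2, stood at 35.5 and 68.3 scaled CPM in Cnot3 RIP, against 18.9 and 20.9 with control IgG and 19.9 and 21.0 in Input. Zbtb43 stood at 38.2 and 134 in Cnot3 RIP, against 13.9 and 14.0 with control IgG and 13.3 and 15.8 in Input.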

How the data were processed

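The deposited table holds CPM per gene symbol, scaled to the reads assigned to genes with Rn45s included. The submitters' processing notes name CASAVA 1.8, FastQC, Bowtie2 2.2.5, TopHat2 2.1.0, edgeR and mm10. For the counter, annotation and strand setting, nothing is stated in the sources used here. Low values step by 1 read, 0.0299 to 0.0636 CPM per library, and 100% of the deposited CPM were whole reads within 0.01. TMM factors (edgeR 4.0.16) from these reads scaled the CPM. After a pseudocount of 0.25, log2 values went into limma 3.58.1 (R 4.3.3, trended empirical Bayes, 3 group means, no block) over 13010 genes kept by filterByExpr at a minimum count of 10. Fold changes are on that log2 scale and understate those of low genes. Calls are at a Benjamini-Hochberg adjusted p under 0.05 over all genes. With 2 libraries against 2 an exact permutation test cannot go below 0.333. Alternatives were edgeR's quasi-likelihood test and DESeq2 1.42.0 on the recovered reads, other scalings, filters and pseudocounts, a replicate block and leaving out each library.

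Members and lists were chosen with earlier results of these data known. Named genes were all members, list genes past the threshold (at most 6 per list and comparison), and the 6 genes most like the members' mean profile. Others are named for their role or, where stated, after their values were seen. Marker lists gave 0 calls over control IgG RIP and 2 against Input for cardiac muscle, endothelium, fibroblast, smooth muscle and pericyte, leukocyte and erythroid genes, with 4 globin genes listed at 0 in all libraries. Of all tested genes 1.81% and 8.32% were called in these comparisons.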

Additional observations from a re-analysis of the deposited data

How the results depend on the processing

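Over control IgG RIP the count of called Krüppel-like factors, 5 of 10 where 1.54% of all genes were higher, was 8 with the deposited CPM (4.55% of all genes) and with DESeq2 (4.33%). It was 2 with no filter on low values (0.183%), 4 with only the 2 groups compared (0.732%), where Klf11 did not pass (limma adjusted p = 0.0570), and 6 with edgeR's quasi-likelihood test (1.86%), which adds Klf4. With single libraries left out it was 0 to 9 (0% to 7.78%). Against Input the count of 5 (5.86%) was 10 with the deposited CPM (59.6%), 8 with DESeq2 (8.06%), and 1 to 9 with single libraries left out (0.0737% to 10.9%). Between control IgG RIP and Input the count of 0 was 1 with the deposited CPM (Klf7), where 33.7% of all genes were higher, and 0 in each fit without 1 library. With the deposited CPM the median of all genes shifted to 0.30, 1.02 and 0.70 in the 3 comparisons, so counts there are not relative to the typical gene.

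Of 150 values over control IgG RIP (10 genes, 15 alternatives) 1 turned in sign, of 150 against Input 1, and of 150 between control IgG RIP and Input 15. Klf15 turned without Cnot3 RIP replicate 2, to −0.21 over control IgG RIP and −0.34 against Input; with single libraries left out its highest values were 2.603 and 2.47. Between control IgG RIP and Input, the deposited CPM gave 0.54 for Klf10, 0.53 for Klf11, 0.62 for Klf15, 0.35 for Klf4, 0.42 for Klf6 and 0.48 for Klf9. Without control IgG RIP replicate 1 the values were 0.03 for Klf10, 0.19 for Klf11 and −0.09 for Klf13. Without control IgG RIP replicate 2 they were 0.33 for Klf15, −0.24 for Klf2 and 0.03 for Klf9. Without Input replicate 1 they were −0.24 for Klf13 and −0.01 for Klf2, and without Input replicate 2 0.67 for Klf15. With single libraries left out, the ranges there were −0.46 to 0.033 for Klf10, −0.61 to 0.19 for Klf11, −0.24 to 0.34 for Klf13, −0.95 to 0.67 for Klf15, −0.24 to 0.31 for Klf2 and −0.60 to 0.027 for Klf9. None of these values between control IgG RIP and Input passed. Apart from the left-out libraries and scaling, whose construction changes the samples or the centre, the cause was not tested.

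The labels give replicate numbers but do not say that they pair libraries, and log2 differences between replicates correlated across genes at −0.32 between Cnot3 RIP and control IgG RIP, 0.34 between Cnot3 RIP and Input and −0.33 between control IgG RIP and Input. With the replicate block 6, 5 and 0 Krüppel-like factors were called, where 2.24%, 4.94% and 1.91% of all genes were higher. Over control IgG RIP, where 1.54% of all genes were higher without the block, Klf4 was added (limma adjusted p = 0.0246). That added call rests on a pairing by number which the replicate differences of Cnot3 RIP and control IgG RIP run against. The 10 had 53 to 9339 reads per library.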
